A study of Mus musculus with 4 samples.

Results

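Ribosome biogenesis and nucleolar genes make the machinery that transcribes ribosomal RNA, modifies and cuts it, and assembles it with ribosomal proteins into the small and large ribosomal subunits. The group described here is a list of 40 gene symbols, found in the table by exact symbol. All 40 were among the 23481 genes of the deposited count table, and all 40 were among the 12843 genes that passed the filter on low counts. RNA was sequenced from cultured mouse 4T1-T cells, which derive from the 4T1 mammary carcinoma line. In both groups the asparagine synthetase gene Asns was silenced, and the cells grew in DMEM medium either lacking asparagine or supplied with it. Each group had 2 libraries, called A and B in the labels. No library of cells with unsilenced Asns was analysed here, so the silencing itself could not be checked. Asns had 75.0 and 89.2 CPM in the cells lacking asparagine against 103 and 101 CPM in those given it. How Asns was silenced, whether the line was clonal and how long the cells stayed in each medium are left unstated by the labels. The labels do not mention separate cultures either, and p-values therefore describe the spread of these libraries only, which may be technical.

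In the nucleolus, RNA polymerase I copies the ribosomal DNA repeats into a long precursor. Small nucleolar ribonucleoproteins (snoRNPs) then guide chemical changes on it: box C/D particles direct methylation of ribose and box H/ACA particles direct conversion of uridine to pseudouridine. Assembly factors fold and trim the precursor into the subunits, and the transcription factor MYC is known to raise the expression of many of these genes in growing cells.

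The genes fell into 6 role groups: 3 box C/D proteins, 4 box H/ACA proteins, 4 abundant nucleolar proteins with several tasks, 5 genes of RNA polymerase I transcription, 11 small subunit factors and 13 large subunit factors. Levels are given as CPM, a gene's counts relative to all gene counts of a library after scaling by TMM, always with library A first and library B next, and changes as log2 fold changes coded as without minus with asparagine. Bulk RNA cannot tell fewer cells of a kind from less RNA per cell.

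Gene counts per library ran from 17977552 to 30260582, and the counts of single members from 300 for Rrp9 to 181959 for Ncl. Library A and library B lay farther apart in the cells lacking asparagine than in those given it. The median absolute log2 gap between A and B over the members was 0.18 without and 0.05 with asparagine, and over all genes tested 0.23 and 0.10. Reads that the counting assigned to no feature made up 56.6% in library A without asparagine and 46.3% to 49.3% in the other libraries. Of 8 epithelial markers all were detected in each library. Their summed level was 968 and 946 CPM without asparagine against 770 and 852 CPM with it. Krt14 and Epcam passed the test, both higher without asparagine. Of the 8 epithelial markers 6 had a positive and 2 a negative log2 fold change. Krt8 was lower in both libraries without asparagine, at 215 and 199 CPM against 216 and 237 CPM with it. Of 8 leukocyte markers the highest reached 6.92 CPM (Cd68), Cd3e had 0 reads in every library, and no fibroblast or endothelial marker of 9 exceeded 0.491 CPM. Without library A or library B of the cells given asparagine the Epcam call was lost (edgeR adjusted p = 0.555 and 0.384). The part of these values in the results on nucleolar genes was not tested.

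Most members had moderately higher levels without asparagine, and none of them passed the test singly. In 31 of 40 genes both libraries without asparagine lay above both libraries with it, and in none did both lie below. Over all genes tested the shares were 26.1% above and 26.4% below. These shares were not matched for level, and members had a median of 101 CPM with asparagine against 23.2 CPM over all genes tested. Among the 31, Nob1 and Wdr43 were close to ties, with library A without asparagine at 38.7 and 334 CPM against at most 38.5 and 331 CPM with it. The fitted log2 fold change was above 0 for 37 members and below 0 for 3, against 51.4% of all genes tested above 0. Its median over the members was 0.29, against 0.01 over all genes. Fold changes were small. They ran from 0.911-fold for Dkc1 to 1.58-fold for Rrp12, and only Rrp12 and Noc4l exceeded 1.5-fold.

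In edgeR's quasi-likelihood test, with adjustment over all genes, 0 members passed the adjusted p threshold of 0.05, where 1.85% of all genes were called, 0.771% higher and 1.07% lower. Adjusted p-values of the members lay between 0.0746 and 0.919. At an unadjusted p under 0.05 there were 21 members higher, against 8.65% of all genes, and 0 lower, against 9.48%. The DESeq2 Wald test called 3 members higher (Rrp12, Noc4l and Rrs1), where it called 1.5% of genes, with 21 at an unadjusted p under 0.05 (6.3% of genes). The limma-voom test called 0 members where it called 0.763% of genes higher, with 22 at an unadjusted p under 0.05 (8.32% of genes). With no filter on low counts 9 members were called higher, against 3.1% of genes, and with the letter as a block 5, against 2.68%. The calls depended on which library was left out. Each such fit kept 1 library in a group and took its spread from the other group. The 2 fits that left out a library without asparagine thus shared the 2 libraries with it as baseline and source of spread. Those libraries lay close together, with a median absolute log2 gap of 0.05 over the members against 0.18 without asparagine. Calls made in both fits are therefore not independent of each other and do not count as replication. Without library A of the cells lacking asparagine 29 members were called higher, against 6.94% of genes, and without library B 28 were called higher and Dkc1 lower, against 18.9% and 21.6%. A total of 23 members were called higher in both of these fits, against 4.36% of the genes tested in both. Without library A of the cells given asparagine 0 members were called higher (0.212% of genes), and 2 had an unadjusted p under 0.05 (2.8% of genes). Without library B of those cells 0 were called higher (0.182%), and 6 had an unadjusted p under 0.05 (3.3%). The members' median stayed between 0.25 and 0.33 in those 4 fits.

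**Figure D1:**
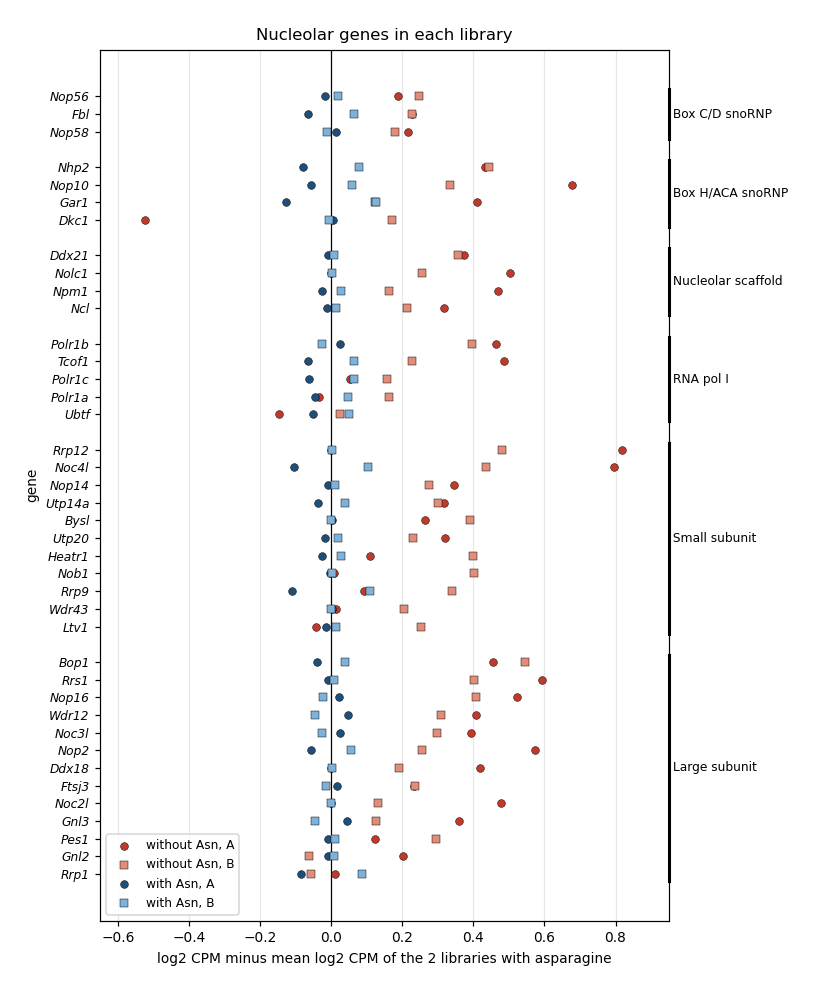
Level of each of the 40 nucleolar genes in each library, as log2 CPM minus the mean log2 CPM of the 2 libraries with asparagine. Each row is a gene, ordered by role and then by p, circles are libraries A and squares libraries B; for 31 genes both red points (without asparagine) lie to the right of both blue points (with asparagine), and Dkc1 is the gene with library A far to the left.

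The 2 libraries without asparagine showed this to differing degrees. Relative to the mean of the libraries with asparagine, the median log2 difference over the members was 0.33 in library A and 0.25 in library B, against 0.01 and 0.00 over all genes tested. The difference was above 0 for 36 members in library A and 38 in library B, where 51.2% and 50.7% of all genes were above 0. Library A was the higher of both for 25 members, against 51.2% of all genes. In 6 members, named after their values were seen, the libraries fell on opposite sides. Dkc1, Polr1a, Ubtf and Ltv1 were below the mean with asparagine in library A and above it in library B, and Gnl2 and Rrp1 were the reverse.

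Summed over the members, the level was 17048 and 16097 CPM without asparagine against 13772 and 14062 CPM with it. Ncl and Npm1 alone made up between 57.5% and 60.5% of these sums. Without them the sums of the remaining 38 genes were 6734 and 6844 CPM without and 5813 and 5918 CPM with asparagine, so that the groups did not overlap either way.

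The box C/D snoRNP proteins had slightly higher levels without asparagine, with no overlap between the groups for any of the 3 genes (26.1% of all genes tested lay above in this way). Nop56, a core protein of the particle, had 757 and 789 CPM without asparagine against 656 and 673 CPM with it. Nop58, its partner on the guide RNA, had 642 and 627 CPM without against 558 and 548 CPM with asparagine. Fbl, which encodes the methyltransferase fibrillarin, had 49.8 and 49.7 CPM without against 40.6 and 44.4 CPM with asparagine. The log2 fold changes were close together, at 0.22 ± 0.10 (SE) for Nop56, 0.20 ± 0.10 for Nop58 and 0.23 ± 0.11 for Fbl, and their edgeR adjusted p-values were 0.315, 0.348 and 0.322. Nop56 lies on chromosome 2 from 130274430 to 130279313, Nop58 on chromosome 1 from 59684971 to 59719044 and Fbl on chromosome 7 from 28169710 to 28179269 (mm10).

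The box H/ACA genes had unlike values, and the differences between them were not tested. Nhp2 and Nop10, the small structural proteins, had the clearest differences. Nhp2 had 56.7 and 57.2 CPM without asparagine against 39.8 and 44.4 CPM with it, a log2 fold change of 0.43 ± 0.11 (SE, edgeR adjusted p = 0.118). Nop10 had 58.3 and 46.0 CPM without against 35.1 and 38.0 CPM with asparagine, a log2 fold change of 0.51 ± 0.14 (edgeR adjusted p = 0.142). In both genes the groups did not overlap. Gar1, a further subunit, had 130 and 107 CPM without against 89.7 and 107 CPM with asparagine, so library B without asparagine was level with library B with it (log2 fold change 0.27 ± 0.14, edgeR adjusted p = 0.364). Without library A of the cells lacking asparagine the values were 0.33 for Nop10 and 0.11 for Gar1.

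Dkc1, which encodes the pseudouridine synthase dyskerin, was the member with the lowest fold change and the widest gap between libraries. It had 445 CPM in library A and 721 CPM in library B without asparagine, against 642 and 637 CPM with it. Library A was thus the lowest of the 4 and library B the highest, and the mean without asparagine was 583 ± 195 CPM (SD, n = 2) against 640 ± 3.31 CPM. The log2 fold change was -0.13 ± 0.21 (SE, edgeR adjusted p = 0.762). Without library A of the cells lacking asparagine it was 0.17, and without library B it was -0.53. Both fits called it, in opposite directions (adjusted p = 0.0361 and 1.73e-14), and the adjusted p over all alternatives lay between 1.73e-14 and 0.989. Dkc1 lies on chromosome X from 75095854 to 75109777, and its exons overlap those of Mpp1 on the opposite strand in GENCODE M21.

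The abundant nucleolar proteins had higher levels in both libraries without asparagine for all 4 genes, against 26.1% of all genes tested. Ncl, which encodes nucleolin, had 7494 and 6975 CPM without asparagine against 5961 and 6070 CPM with it. Npm1, which encodes the histone and ribosome chaperone nucleophosmin, had 2820 and 2278 CPM without against 1998 and 2074 CPM with asparagine. Nolc1, a chaperone that binds snoRNPs, had 326 and 275 CPM without against 230 and 230 CPM with asparagine. Library A was the highest of the 4 libraries in each of these genes.

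Ddx21, an RNA helicase of the nucleolus, was the most even of the 4, with 492 and 487 CPM without against 378 and 383 CPM with asparagine. Its log2 fold change was 0.36 ± 0.10 (SE, edgeR adjusted p = 0.137), and it lay between 0.35 and 0.41 under all 12 alternatives. The log2 fold change was 0.38 ± 0.12 for Nolc1, 0.32 ± 0.13 for Npm1 and 0.27 ± 0.12 for Ncl (edgeR adjusted p = 0.169, 0.270 and 0.286). Without library A of the cells lacking asparagine the values were 0.16 for Npm1 and 0.25 for Nolc1. Npm1 is known for many processed copies in the genome, which makes the split of reads between it and them uncertain.

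Of the 5 RNA polymerase I genes, 2 lay higher in both libraries without asparagine, a count to be read against 26.1% of all genes tested. Polr1b, a catalytic core subunit, had 56.1 and 53.5 CPM without asparagine against 41.4 and 39.97 CPM with it. The log2 fold change of Polr1b was 0.43 ± 0.10 (SE, edgeR adjusted p = 0.107). Tcof1, which encodes the nucleolar protein treacle, had 146 and 122 CPM without against 99.8 and 109 CPM with asparagine (log2 fold change 0.36 ± 0.12, edgeR adjusted p = 0.203). In these 2 genes the groups did not overlap, and without library A of the cells lacking asparagine Tcof1 had a value of 0.22.

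The other 3 genes of that group overlapped between the groups. Polr1c, a subunit shared with RNA polymerase III, had 62.9 and 67.6 CPM without against 58.1 and 63.4 CPM with asparagine (log2 fold change 0.10 ± 0.11, edgeR adjusted p = 0.638). Polr1a, the largest subunit, had a log2 fold change of 0.07 ± 0.11 (edgeR adjusted p = 0.779). Ubtf, which encodes the upstream binding factor of ribosomal DNA, had 121 and 136 CPM without against 129 and 139 CPM with asparagine, a log2 fold change of -0.06 ± 0.11 (edgeR adjusted p = 0.804). Its sign was positive (0.02) without library A of the cells lacking asparagine.

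Small subunit factors had a median log2 fold change of 0.28, with all 11 above 0 (51.4% of all genes tested). In 9 both libraries without asparagine lay above both with it (26.1% of all genes). Rrp12, a factor in maturation and export of pre-ribosomes, had the largest fold change of all 40 members. It had 55.4 and 43.8 CPM without asparagine against 31.4 and 31.4 CPM with it. The log2 fold change was 0.66 ± 0.14 (SE, edgeR adjusted p = 0.0746), or 0.48 without library A of the cells lacking asparagine and 0.82 without library B. Noc4l, a partner of Nop14 in small subunit assembly, had 50.7 and 39.4 CPM without against 27.2 and 31.4 CPM with asparagine (log2 fold change 0.62 ± 0.15, edgeR adjusted p = 0.115). Nop14 itself had 179 and 170 CPM without against 140 and 142 CPM with asparagine (log2 fold change 0.31 ± 0.10, edgeR adjusted p = 0.178). Rrp12 lies on chromosome 19 from 41862851 to 41896173, Noc4l on chromosome 5 from 110648418 to 110653417 and Nop14 on the same chromosome from 34638536 to 34660148.

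The remaining 8 small subunit genes had log2 fold changes between 0.11 and 0.33. Utp14a, Utp20 and Heatr1, parts of the processome that cuts the precursor, had values of 0.31, 0.28 and 0.26. Heatr1 had 0.40 without library A of the cells lacking asparagine and 0.11 without library B. Bysl, a late assembly factor, had 0.33, and Nob1, the endonuclease that makes the final cut of the small subunit RNA, had 0.22. For Nob1, library A without asparagine (38.7 CPM) was level with the libraries with asparagine (38.4 and 38.5 CPM) and library B was above them at 50.9 CPM. Wdr43 was alike, with 334 and 381 CPM without against 331 and 331 CPM with asparagine. The export adaptor gene Ltv1 had 77.5 and 95.1 CPM without against 79.1 and 80.7 CPM with asparagine, so that library A lay just below the libraries with asparagine. Without library B of the cells lacking asparagine the log2 fold changes were 0.01 for Nob1, 0.01 for Wdr43 and -0.05 for Ltv1. The library values of these 3 genes were chosen for print after they were seen. Rrp9, a snoRNP protein, also overlapped between the groups (log2 fold change 0.22 ± 0.15, edgeR adjusted p = 0.468), with values of 0.33 without library A of the cells lacking asparagine and 0.08 without library B.

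**Figure D2:**
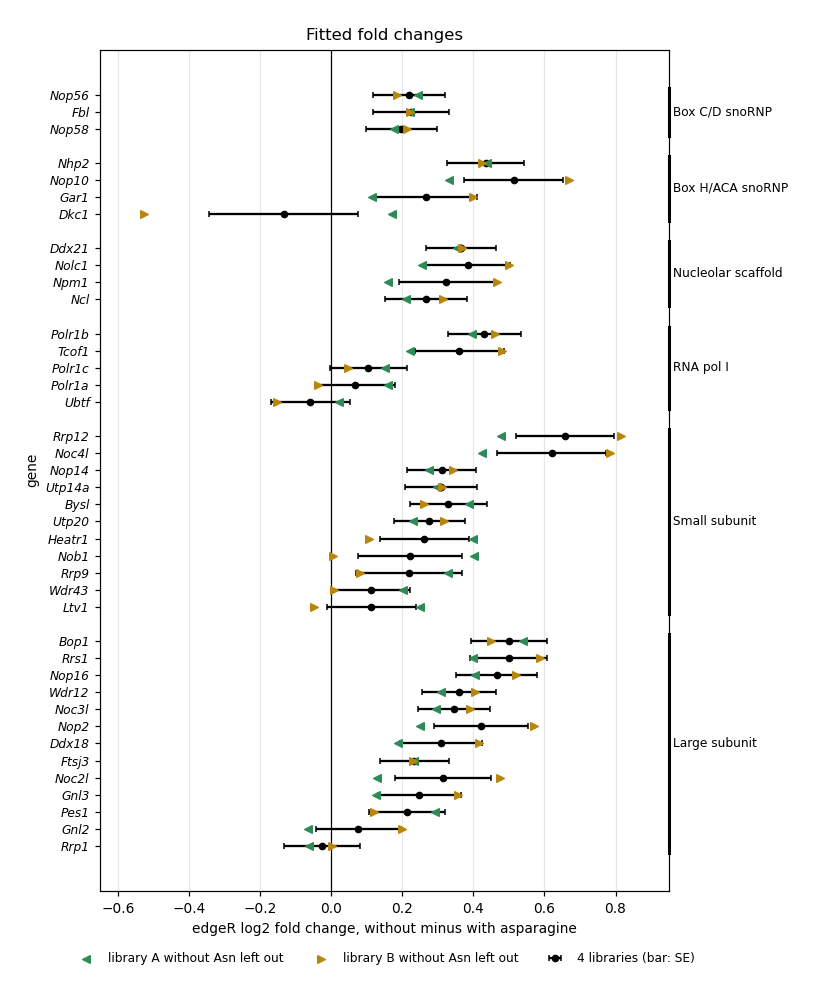
Fitted log2 fold change of each nucleolar gene (black points with SE bars, 2 libraries against 2), with the value after leaving out library A (green) or library B (gold) of the cells without asparagine. Rrp12 and Noc4l lie farthest to the right at 0.66 and 0.62, and the green and gold marks of Dkc1 fall on opposite sides of 0.

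Large subunit factors had a median log2 fold change of 0.31, with 12 of 13 above 0 (51.4% of all genes tested). In 11 both libraries without asparagine lay above both with it (26.1% of all genes). At an unadjusted edgeR p under 0.05, 8 were higher (8.65% of all genes). Bop1 had 45.0 and 47.9 CPM without asparagine against 31.9 and 33.8 CPM with it, a log2 fold change of 0.50 ± 0.11 (SE, edgeR adjusted p = 0.0815). It encodes a scaffold of the PeBoW complex, which acts in maturation of the large subunit RNA. The other members of that complex were Wdr12, with 117 and 109 CPM without against 91.2 and 85.4 CPM with asparagine, and Pes1, with 93.5 and 105 CPM without against 85.2 and 86.4 CPM with asparagine. Summed over the 3 genes, PeBoW had 256 and 263 CPM without against 208 and 206 CPM with asparagine. The log2 fold changes were 0.50 for Bop1, 0.36 for Wdr12 and 0.21 for Pes1, with SEs of 0.11, 0.10 and 0.11. Pes1 had 0.12 without library B of the cells lacking asparagine.

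Rrs1, an early factor in assembly of the large subunit, had 156 and 137 CPM without asparagine against 103 and 104 CPM with it (log2 fold change 0.50 ± 0.11, edgeR adjusted p = 0.0855). Nop16 had 32.1 and 29.6 CPM without against 22.7 and 22.0 CPM with asparagine (log2 fold change 0.47 ± 0.11, edgeR adjusted p = 0.115). Both were higher in both libraries without asparagine, with gaps between the groups wider than those within them. Bop1 lies on chromosome 15 from 76452989 to 76477277, Rrs1 on chromosome 1 from 9545408 to 9547455 and Nop16 on chromosome 13 from 54584185 to 54590090.

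The other large subunit genes had log2 fold changes from -0.03 to 0.42. Nop2, an rRNA methyltransferase, had 0.42, and 0.25 without library A of the cells lacking asparagine. Noc3l and Noc2l, which escort pre-ribosomes, had 0.35 and 0.31. The helicase gene Ddx18 had 0.31, the nucleostemin gene Gnl3 0.25 and the methyltransferase gene Ftsj3 0.23. The values for Noc2l, Ddx18 and Gnl3 were 0.13, 0.19 and 0.13 without library A of the cells lacking asparagine. Gnl2, a GTPase gene, overlapped between the groups with a value of 0.08. Rrp1 had the lowest value, with 252 and 241 CPM without against 236 and 266 CPM with asparagine (log2 fold change -0.03 ± 0.11, edgeR adjusted p = 0.919). Rrp1 values without asparagine lay inside the range of those with it.

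**Figure D3:**
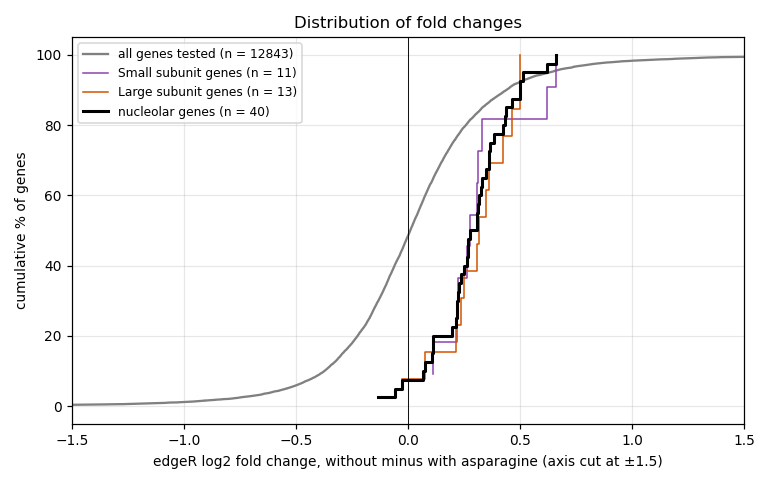
Cumulative share of genes against the edgeR log2 fold change for all 12843 genes tested (grey), the 40 nucleolar genes (black), and the 11 small subunit (purple) and 13 large subunit (orange) factors. The black line crosses its median at 0.29, while the grey line crosses at 0.01.

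Levels between genes were compared per kilobase of the principal transcript in GENCODE M21, the longest one where several ranked equally. It had 8202 bases for Ncl, 10012 for Wdr12 and 3854 for Bysl, against 1633 for Npm1. The order below depends on this choice, and other transcripts were not tried. Before division by length, Ncl had a mean of 6016 CPM and Npm1 of 2036 CPM with asparagine. With asparagine, Npm1 (1247 CPM per kb) and Ncl (733 CPM per kb) stood first, followed by Nop56 (354), Nop58 (323) and Dkc1 (228). The lowest were Rrp12 (7.23), Wdr12 (8.82) and Bysl (8.96). The members with the largest fold changes, Rrp12 and Noc4l, thus stood at places 40 and 33 of 40. Members were more abundant than the typical gene, with a median of 101 CPM with asparagine against 23.2 CPM over all genes tested. Transcript length had a Spearman correlation of 0.02 with the log2 fold change across the 40 members and of -0.20 across the 11427 genes tested with a length; this is a description across genes, which share their libraries. The median transcript length was 2552 bases for the members and 3015 bases for those genes.

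Several members carry small nucleolar RNA (snoRNA) genes within their own bounds and on their own strand, 19 snoRNA genes in 6 members by GENCODE M21. Of these 10 were in the count table and tested, 0 passed the edgeR test, and in 9 both libraries without asparagine lay above both with it (26.1% of all genes tested). Snord92 and Snord110, counted among the 9, passed the filter on low counts only through the libraries without asparagine, which favours that order. Snord92 had 0.600 and 0.492 CPM without against 0.252 and 0.234 CPM with asparagine, and Snord110 0.818 and 0.626 against 0.168 and 0.400 CPM. Snord82, inside Ncl, had 7.90 and 5.28 CPM without asparagine against 3.57 and 2.67 CPM with it (log2 fold change 1.08 ± 0.27, edgeR adjusted p = 0.116). Snord11, inside Nop58, had 2.56 and 1.48 CPM without against 0.841 and 0.934 CPM with asparagine (log2 fold change 1.16 ± 0.36, edgeR adjusted p = 0.175). Snord57, inside Nop56, was the exception, with 3.38 and 3.00 CPM without against 3.28 and 3.80 CPM with asparagine. These genes were looked up after the member values were seen. Their reads cannot be told apart from reads of the unspliced host transcript.

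Rn45s, the symbol of the ribosomal RNA precursor that this machinery acts on, had 34616 and 16786 CPM without asparagine against 8868 and 11907 CPM with it. The precursor contains the sequences of mature ribosomal RNAs, so the reads of the precursor and of the mature forms cannot be told apart here. Mature ribosomal RNA carried into a library may thus make up part of these values, which was not tested. Library A was the highest of the 4 by a wide margin. The groups did not overlap, and the log2 fold change of 1.31 ± 0.33 (SE) missed the threshold (edgeR adjusted p = 0.118). Without library A of the cells lacking asparagine the value was 0.69, and without library B it was 1.73; both of these fits called it (adjusted p = 2.4e-49 and 2.48e-277). Without library A or library B of the cells given asparagine it was not called, at 1.11 and 1.53 (adjusted p = 0.478 and 0.185). Rn45s took 3.53% and 1.66% of gene counts without asparagine against 0.884% and 1.18% with it. With its reads set aside, the members together took 1.80% and 1.62% of the gene counts without and 1.39% and 1.41% with asparagine. From high to low, the 4 libraries had the same order for Rn45s as for the summed level of all members. That order did not hold without Ncl and Npm1. The sum of the remaining 38 members was then lower in library A without asparagine (6734 CPM) than in library B (6844 CPM). The part of Rn45s in the members' values was not tested. With the 10 most abundant genes left out of the fit, Ncl and Rn45s among them, the median of the other 39 members was 0.31. That median was the value of Ddx18, which had 0.31 in the main fit too. The difference from the 0.29 over all members thus reflects the set without Ncl.

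MYC and its network were given as a list of 11 genes, of which 10 were tested. Myc, the main activator, had 719 and 657 CPM without asparagine against 485 and 520 CPM with it (log2 fold change 0.45 ± 0.11, edgeR adjusted p = 0.107). It was called without library A or library B of the cells lacking asparagine (0.38 and 0.51, adjusted p = 2.57e-08 and 5.78e-15) and not without either library of those given it (0.904 and 0.763). Mxi1, which encodes a competitor of MYC for its partner MAX, had 34.8 and 39.1 CPM without against 60.6 and 59.1 CPM with asparagine. Mxi1 fell by 0.70 on the log2 scale (SE 0.11, edgeR adjusted p = 0.0358). Without library A or library B of the cells given asparagine that call was lost, at log2 fold changes of -0.68 and -0.72 (adjusted p = 0.404 and 0.340, range over all alternatives 4.46e-13 to 0.404). It was the single gene of the list to pass, and 4 of the 10 had a positive and 6 a negative fold change.

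**Figure D4:**
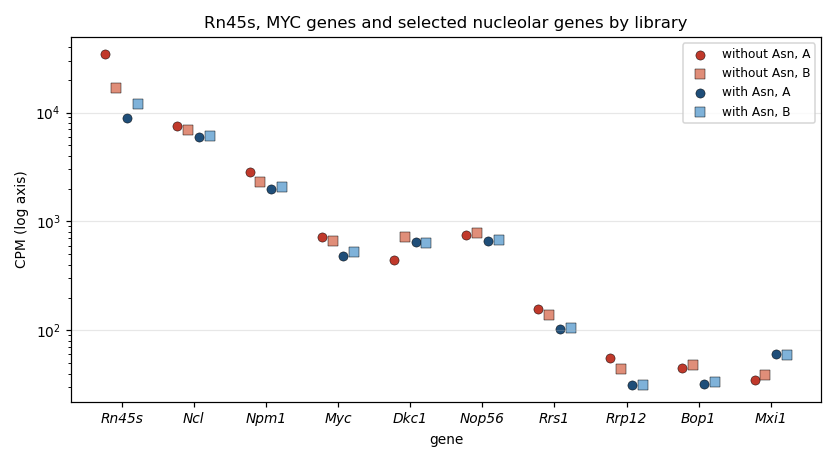
CPM on a log axis for Rn45s, the MYC genes Myc and Mxi1, and 7 nucleolar genes in each of the 4 libraries (red without, blue with asparagine; circles A, squares B). Rn45s spans 8868 to 34616 CPM, Mxi1 is lower in both libraries without asparagine, and Dkc1 has library A below and library B above the libraries with asparagine.

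Other genes of the pathway, listed apart from the 40, had medians in the same direction, and none passed the edgeR test. These medians were smaller than the 0.29 of all 40 members together. Among 44 further small subunit factors the median log2 fold change was 0.19, with 32 above 0, and 10 higher and 1 lower at an unadjusted p under 0.05 (8.65% and 9.48% of all genes tested). Nat10, which acetylates cytidines of ribosomal RNA, had 101 and 105 CPM without asparagine against 77.7 and 74.4 CPM with it (log2 fold change 0.44 ± 0.10, edgeR adjusted p = 0.0947). Fcf1 had a log2 fold change of 0.45 ± 0.12 (edgeR adjusted p = 0.128). Among 44 further large subunit factors the median was 0.18, with 37 above 0 and 11 higher at an unadjusted p under 0.05. The helicase gene Ddx27 had 0.37 ± 0.10 and Mki67ip, now named Nifk, 0.40 ± 0.10 (edgeR adjusted p = 0.143 and 0.122). These 4 genes had the smallest p of their lists, a choice that favours separated libraries, and each had both libraries without asparagine above both with it. The same held for 24 of the 44 small subunit and 29 of the 44 large subunit factors, against 26.1% of all genes tested.

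Of 17 further genes listed for RNA polymerase I, 15 had a positive fold change. That list also held Polr2e, Polr2f, Polr2h, Polr2k and Polr2l, subunits shared with other RNA polymerases, and Baz2a, a gene of ribosomal DNA silencing. The median log2 fold change of the 17 was 0.20, above the 0.10 of the 5 members listed for RNA polymerase I transcription. Taf1d and Taf1a, subunits of the selectivity factor that brings the polymerase to ribosomal DNA, stood at 0.52 ± 0.14 and 0.52 ± 0.16 on the log2 scale (edgeR adjusted p = 0.143 and 0.167). Taf1d had 322 and 247 CPM without asparagine against 201 and 197 CPM with it. Both fell short of the threshold, and without library A of the cells lacking asparagine both had a value of 0.31. Of 23 tested genes of the RNA exosome and RNase MRP, 18 were above 0 (median 0.24), with Pop1 at 0.42 ± 0.10 and Exosc1 at 0.39 ± 0.11 (edgeR adjusted p = 0.0969 and 0.139). Of 12 genes listed for snoRNP assembly, 10 were above 0 (median 0.13). Nhp2l1, now named Snu13, was in that list although it encodes a core protein of box C/D particles. Its value was 0.31 ± 0.11, and Naf1 had 0.30 ± 0.14 (edgeR adjusted p = 0.208 and 0.320). Naf1 had 0.11 without library A of the cells lacking asparagine.

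**Figure D5:**
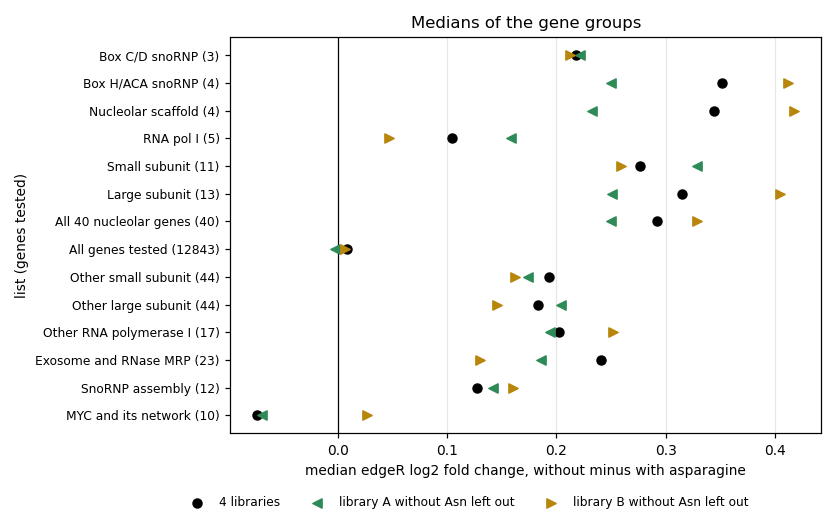
Median edgeR log2 fold change of each role group of the 40 nucleolar genes, of all genes tested and of the other pathway lists (number of genes tested in brackets), with all 4 libraries (black) and without library A (green) or B (gold) of the cells lacking asparagine. The medians of all lists of the ribosome pathway lie above 0 in the 3 fits, and the MYC list lies at -0.07, or 0.03 without library B.

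Promoters were looked at because most members differed in the same direction. RefSeq windows on GRCm38.p6 were held for 33 of the 40 members, 41 windows in all, each reaching from 250 bases before to 50 bases after a transcript start. The E-box CACGTG, which MYC and MAX are known to bind and which reads the same on both strands, was in the window of 5 members (15.2% of the 33). Over the 9406 tested genes with such a window the share was 11.7%, so the members were near the background. The motif TATAAA, searched on both strands and without overlap with the E-box, was in 4.88% of the members' windows and in 7.27% of windows of genes tested. The members with an E-box had a median log2 fold change of 0.21 (n = 5) and the other 28 a median of 0.29.

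The 5 stretches that hold the E-box are shown so that its place can be compared between genes, 5′ to 3′ on the strand of the gene, with the E-box in capitals.
Nop2: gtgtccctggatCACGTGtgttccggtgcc
Pes1: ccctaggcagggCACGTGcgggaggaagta
Wdr43: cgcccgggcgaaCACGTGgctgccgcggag
Ltv1: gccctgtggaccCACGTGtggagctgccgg
Utp20: cggcactaactaCACGTGaggaaaa
In Nop2 (chr6:125131811-125131840, plus strand) the E-box began 60 bases before the transcript start. In the other 4 it began after the start: 2 bases after it in Pes1 (chr11:3963965-3963994, plus strand), 17 in Wdr43 (chr17:71616220-71616249, plus strand), 28 in Ltv1 (chr10:13193092-13193121, minus strand) and 37 in Utp20 (chr10:88826765-88826789, minus strand), the first transcribed base being counted as 0. The Utp20 stretch is shorter because its window ended there. Nop2 had 139 and 112 CPM without asparagine against 90.0 and 97.3 CPM with it (log2 fold change 0.42 ± 0.13, edgeR adjusted p = 0.178). The other 4 had lower values of 0.21 (Pes1), 0.11 (Wdr43), 0.11 (Ltv1) and 0.28 (Utp20).

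The 250 bases before the start of Nop2 are given because Nop2 was the member whose E-box lay upstream and had the highest fold change of these 5.
Nop2: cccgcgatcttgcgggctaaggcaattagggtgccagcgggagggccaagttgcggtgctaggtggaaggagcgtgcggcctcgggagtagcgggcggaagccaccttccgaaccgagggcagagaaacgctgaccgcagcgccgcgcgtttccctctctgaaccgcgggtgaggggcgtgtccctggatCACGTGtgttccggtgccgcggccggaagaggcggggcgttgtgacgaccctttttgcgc
This stretch is chr6:125131633-125131882 on the plus strand. The whole Nop2 window was rich in CpG, with 35 CpG in 300 bases, against a median of 22 over the members' windows and 20 over windows of genes tested. A match is only a run of letters, and its absence from a window says nothing about binding elsewhere.

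In GENCODE M21, exons of 16 members overlap exons of a gene on the opposite strand and 4 overlap one on their own strand, where reads may be shared or dropped since no source used here gives the strand setting of the counting. Among the genes described above these include Nop56 with Idh3b, Nhp2 with Rmnd5b, Bop1 with Mroh1, Bysl with Ccnd3 and Wdr12 with Carf.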

How the data were processed

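The deposited values were raw counts of reads per gene symbol, made by the authors with Bowtie2 and HTSeq on mm10, per the submitters' processing notes. Their versions, settings, annotation and strand use are not stated in the sources used here. RNA was prepared with a Qiagen RNeasy and a NuGEN Ovation V2 kit, per the labels' protocols. The 5 HTSeq summary rows (60.1% to 70.0% of reads) stayed out of library sizes and tests. Columns were matched to samples by their descriptions.

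Genes passing filterByExpr (minimum count 10, minimum total 15) were TMM-scaled and put through edgeR 4.0.16 (R 4.3.3; glmQLFit, glmQLFTest) on the 2 groups, with Benjamini-Hochberg adjustment over all 12843 genes and a threshold of 0.05. The SE is the fold change divided by the square root of F. Alternatives were DESeq2 1.42.0, limma-voom 3.58.1, other scalings and filters, the letter as a block and each library left out. The edgeR steps were tested on simulated data.

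The members and lists were chosen with earlier results of these data known. Named with values are the 3 members of each role group with the smallest p (all in groups of 4 or fewer), members with a negative fold change, 2 genes per other list, Rn45s and Myc; other names were chosen after their values were seen. No set test was run.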

Additional observations from a re-analysis of the deposited data

How the results depend on the processing

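The members' median log2 fold change of 0.29 lay between 0.25 and 0.34 under all 12 alternatives. The 237 genes called in all became 464 with the DESeq2 Wald test, 1334 with no filter on low counts and 816 with the letter as a replicate block, and from 48 to 5363 with a library left out. Members called higher (0) became 3, 9 and 5 under the same 3 alternatives, and 0 to 29 with a library left out. Members called lower ranged from 0 to 1 with a library left out. Dkc1 had log2 fold changes from -0.53 to 0.17 with a library left out. It changed sign to 0.17 without library A of the cells lacking asparagine, where its 2 libraries differ in direction. Ubtf and Gnl2 also changed sign in that fit, and Polr1a, Ltv1 and Rrp1 did so without library B of the cells lacking asparagine. Rrp1 further changed sign without library B of the cells given asparagine and with upper quartile scaling. Where a group kept 1 library, its spread was taken from the other group. The causes of the other changes were not tested. The letters are not said to pair the libraries: deviations of the A libraries from their group means had a correlation of 0.115 across 12837 genes. Precision is limited by having 2 libraries a group and, for members with few reads such as Rrp9 (from 300 reads in a library), by counting error.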
